A study of Saccharomyces cerevisiae with 3 samples.

Results

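COMPASS is the yeast protein complex that methylates lysine 4 of histone H3, and JHD2 encodes the demethylase that removes these methyl groups. The 9 genes described here encode the catalytic subunit (SET1), the other 7 COMPASS subunits (SWD1, SWD3, BRE2, SDC1, SPP1, SWD2 and SHG1) and JHD2. They were taken by name from 6002 nuclear protein-coding genes, all 9 were found, and their peaks are the deposited regions that touch the stretch from 500 bp before the start codon to the end of the gene. The question is which genes of the writer and the eraser carry the marks that their products set or remove.

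The cells were Saccharomyces cerevisiae BY4741, a haploid laboratory strain of mating type a, in mid-log growth in rich glucose medium (YEPD) and fixed with formaldehyde for 20 minutes. Nuclear chromatin was cut with micrococcal nuclease, and fragments carrying H3 were immunoprecipitated with an antibody to H3 trimethylated at lysine 4 (H3K4me3) or dimethylated at it (H3K4me2). The series has 3 samples, which are 1 library per mark and 1 input without antibody. The input has no peak list and gives no value here, so the background at these genes is not known. The labels do not say whether the libraries came from the same culture.

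As background, COMPASS is recruited to genes during transcription, and trimethylation is typical of the beginning of transcribed genes while dimethylation lies further along them. The complex depends on earlier ubiquitination of histone H2B, which in turn needs the Paf1 elongation complex. The methyl marks are read by proteins with PHD fingers and by the Set3 deacetylase complex. The writer and the eraser are themselves products of genes wrapped in the same chromatin.

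The H3K4me3 list held 3714 peaks and 1644589 tags in them, and the H3K4me2 list held 2998 peaks and 1492318 tags. The median peak held 391 H3K4me3 tags or 453 H3K4me2 tags. Total sequencing depth is unknown, and fold enrichments or tags of the lists are therefore not set against each other. With 1 library per mark there is no replicate spread and no test. Intervals on counts of genes or tags cover counting error only. A gene without a peak is a gene where the authors' caller reported none, which does not show that the mark is absent: the weakest reported peaks still held 128 H3K4me3 tags and 170 H3K4me2 tags.

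Of the 9 genes, 6 carried H3K4me3 at the start and 3 of these carried H3K4me2 there as well, while SDC1, SHG1 and JHD2 carried neither mark anywhere in the gene. A start counted as marked when peaks of the mark covered at least 50% of the first 500 bp of the gene, or of the whole gene where it is shorter. H3K4me3 met this in 6 of 9 genes (66.7%, exact 95% interval 29.9 to 92.5), against 64.6% of all nuclear protein-coding genes. H3K4me2 met it in 3 of 9 genes (33.3%, 7.49 to 70.1), against 43.5% of all genes. Both marks were at the starts of SET1, SWD3 and BRE2 (3 of 9, against 38.4% of all genes). H3K4me3 without H3K4me2 was at the starts of SWD1, SPP1 and SWD2 (3 of 9, against 26.2%), and neither was at the remaining 3 (against 30.3%). The interval of each class includes the share of all genes. The 9 genes were taken by name and are not a random sample, and no difference from the genome was tested.

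**Figure D1:**
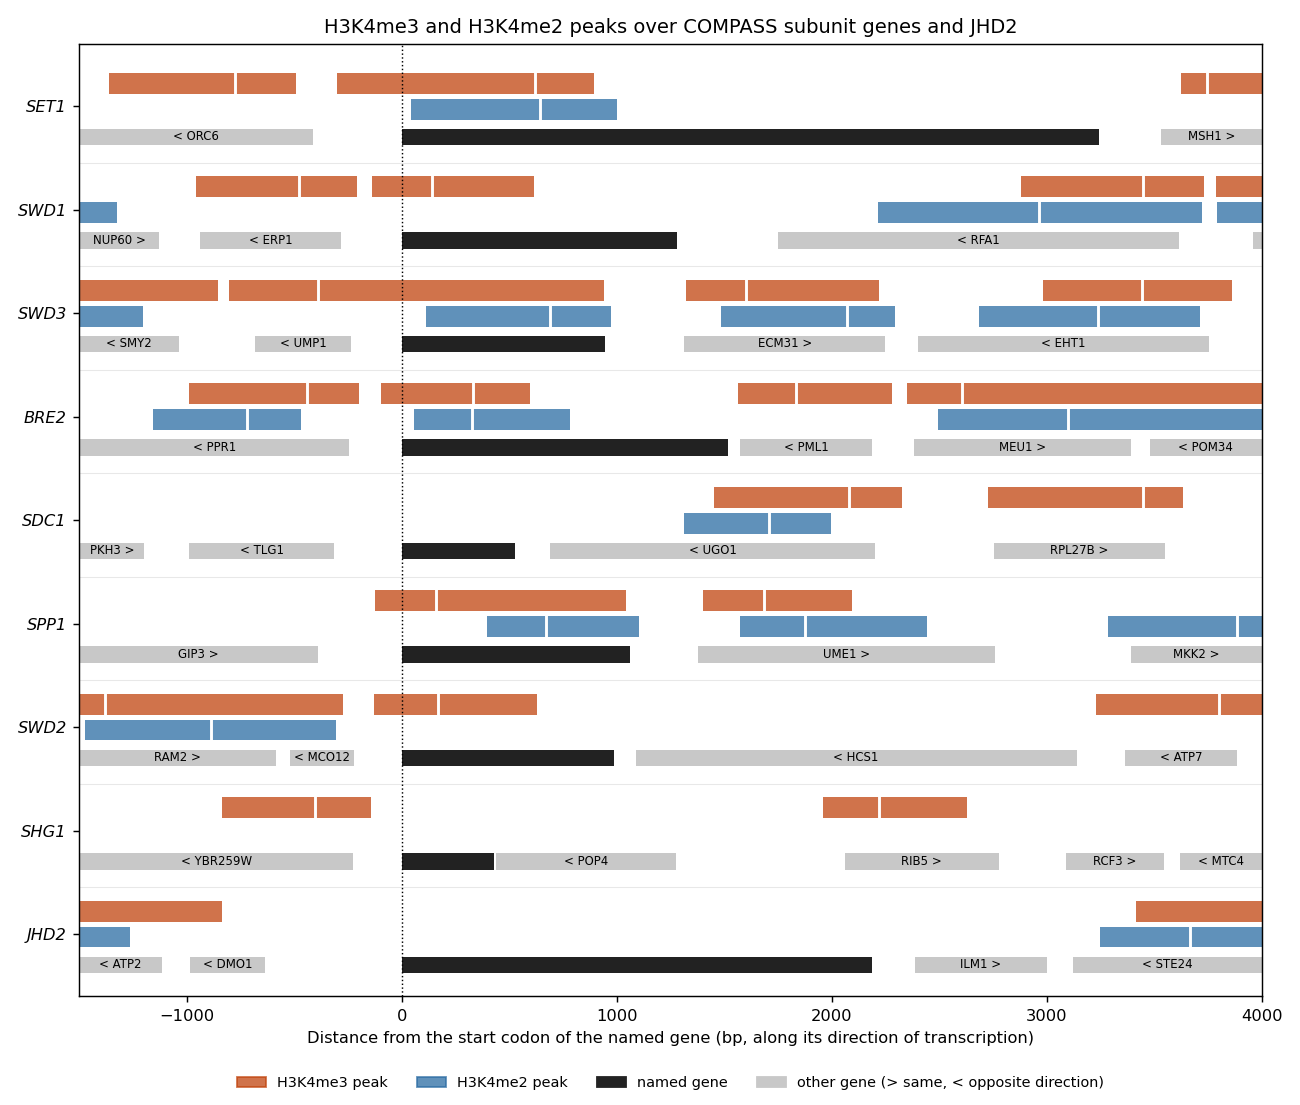
Peaks of H3K4me3 (upper bars) and H3K4me2 (lower bars) around the 9 genes, drawn by distance in bp from the start codon along the direction of transcription. White ticks are the authors' summits, black bars are the named genes and grey bars other genes. H3K4me3 peaks lie over the start codons of 6 genes, H3K4me2 peaks begin 42 to 395 bp inside 4 of them, and SDC1, SHG1 and JHD2 are free of both.

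No gene lay near the limit. The covered share of the start window was 100% for H3K4me3 in all 6 marked genes and 0% in the other 3. For H3K4me2 it was 91.6% in SET1, 89.0% in BRE2 and 77.4% in SWD3, then 21.0% in SPP1 and 0% in the other 5. Marked and unmarked starts were thus far apart in coverage. Full coverage by H3K4me3 is not particular to these genes, since only 43.8% of all genes had a lower share.

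**Figure D2:**
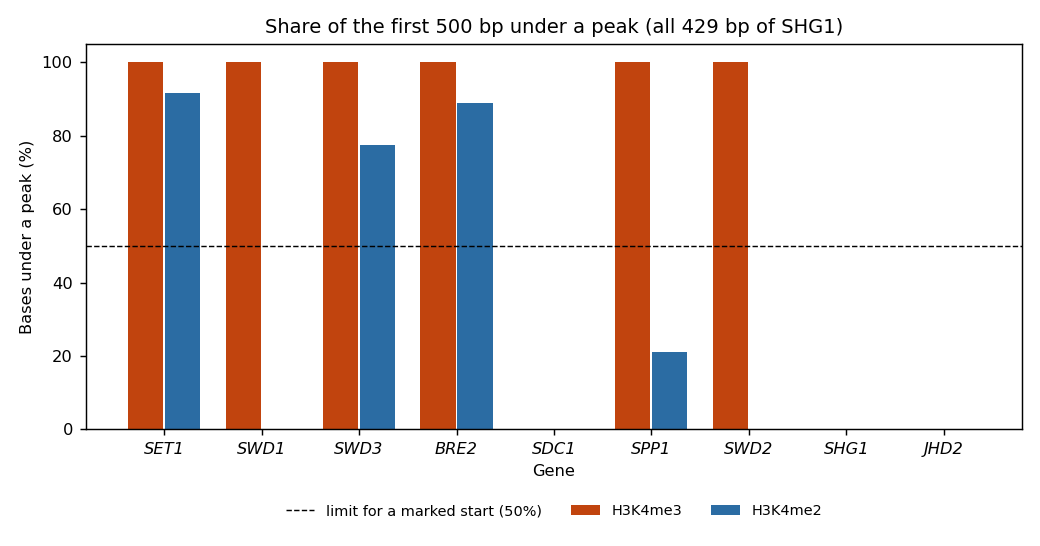
Share of the first 500 bp under a peak (y axis, %) for each gene (x axis), with H3K4me3 left of H3K4me2 and the 50% limit as a dashed line. The 6 genes with H3K4me3 are covered over the whole window, and H3K4me2 ranges from 21.0% in SPP1 to 91.6% in SET1 where it is present.

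SET1, the catalytic subunit with the SET domain, carried both marks over its first part. All positions are those of the build sacCer3 (R64). The gene (YHR119W) lies on the plus strand of chromosome VIII from 346043 to 349285, and at 3243 bp it is the longest of the 9. Its H3K4me3 peak ran from 345743 to 346936, which is 300 bp before to 893 bp after the start codon, and held 535 tags (exact 95% interval 491 to 582) at 2.70-fold enrichment. The H3K4me2 peak ran from 346085 to 347044, which is 42 to 1001 bp after the start codon, and held 360 tags (324 to 399) at 2.33-fold. The summits lay close together, at 621 bp for H3K4me3 and 645 bp for H3K4me2. The last 2241 bp of SET1 were under no peak.

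The summit of H3K4me3 in SET1 lay further into the gene than in most marked genes, whose median summit was 294 bp after the start codon (quartiles 161 and 417 bp). A further H3K4me3 peak entered the searched stretch by 10 bp only. It had its summit in ORC6, a gene of the origin recognition complex transcribed away from SET1.

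SWD1 and SWD3 encode the WD40-repeat proteins of the COMPASS core, and their starts fell into different classes. SWD1 (YAR003W, chromosome I, 155005 to 156285, plus strand) carried H3K4me3 alone. Its peak ran from 154865 to 155619, 140 bp before to 614 bp after the start codon, with 281 tags (249 to 316) at 2.61-fold. No H3K4me2 peak touched SWD1, and the nearest lay 936 bp beyond the end of the gene, over RFA1.

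SWD3 (YBR175W, chromosome II, 582408 to 583355, plus strand) had the strongest peaks over any of the 9 genes, for both marks. Its H3K4me3 peak held 792 tags (738 to 849) at 3.70-fold, above 89.9% of the peaks of that list. This peak ran from 581602 to 583350 and covered the start codons of both SWD3 and UMP1, a proteasome assembly factor gene 235 bp away and transcribed in the opposite direction. Its summit lay inside UMP1, 388 bp before the start codon of SWD3, and 53.9% of its bases lay in SWD3. The fold and the tags are therefore not those of SWD3 alone.

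The H3K4me2 peak of SWD3 did not have this ambiguity. It ran from 582521 to 583382, beginning 113 bp after the start codon, and 96.9% of it lay in the gene. It held 386 tags (348 to 426) at 3.16-fold, above 95.5% of the H3K4me2 list. Together the marks covered the whole of this 948 bp gene, with 830 bp under both.

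BRE2 and SDC1 encode subunits that bind each other within COMPASS, and they were in opposite classes. BRE2 (YLR015W, chromosome XII, 175227 to 176744, plus strand) carried both marks in narrow peaks. H3K4me3 ran from 175131 to 175822, 96 bp before to 595 bp after the start codon, with 241 tags (212 to 273) at 2.62-fold. H3K4me2 ran from 175282 to 176010, 55 to 783 bp after it, with 282 tags (250 to 317) at 2.53-fold. These were weak peaks: their scores, a log-scaled p-value of the authors that is higher for stronger peaks, were 85.06 for H3K4me3 and 91.99 for H3K4me2. Of all peaks, 82.5% of the H3K4me3 list and 72.4% of the H3K4me2 list had a score of at least 100.

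SDC1 (YDR469W, chromosome IV, 1399015 to 1399542, plus strand, 528 bp) had no peak of either mark from 500 bp before its start codon to its end. This held in 2 of the 9 genes, the other being JHD2, against 19.5% of all genes. SDC1 lay in a stretch of 4346 bp, from 1395982 to 1400327, that no peak of either list touched. The gene transcribed away from it, TLG1, which encodes a SNARE protein of vesicle transport, lay wholly inside the same stretch. The nearest peaks were over UGO1, 927 bp beyond the end of SDC1 for H3K4me3 and 786 bp for H3K4me2.

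SPP1 encodes the subunit whose PHD finger binds H3K4me3 and which supports trimethylation by the complex. In SPP1 (YPL138C, chromosome XVI, 291366 to 292427, minus strand) H3K4me3 covered 98.1% of the gene and H3K4me2 its second part. The H3K4me3 peak began 125 bp before the start codon and ended 1041 bp after it, with 442 tags (402 to 485) at 2.94-fold. The H3K4me2 peak began 395 bp after the start codon and ended 1105 bp after it, just beyond the gene, with 291 tags (259 to 326) at 2.79-fold. SPP1 is counted among starts with H3K4me3 alone because this peak reached into only 21.0% of the start window, although H3K4me2 covered 62.8% of the gene.

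SWD2 encodes a WD40 protein that COMPASS shares with the machinery for cleavage and polyadenylation of transcripts. SWD2 (YKL018W, chromosome XI, 404102 to 405091, plus strand) carried H3K4me3 alone, in a peak from 130 bp before to 631 bp after the start codon with 306 tags (273 to 342) at 2.83-fold. The H3K4me2 peak that met the search rule for SWD2 lay entirely upstream, ending 305 bp before the start codon. It had its summit in RAM2, a subunit gene of the protein prenyltransferases, and touched no base of SWD2.

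SHG1 encodes a small subunit of COMPASS whose role is less defined than that of the others. SHG1 (YBR258C, chromosome II, 729734 to 730162, minus strand, 429 bp) had no base under either mark. Its row in the H3K4me3 list was a peak of 242 tags (212 to 274) at 2.66-fold that ended 142 bp before its start codon. That peak covered the start codon of YBR259W, which is transcribed away from SHG1, and had its summit in it. The nearest H3K4me2 peak lay 3053 bp away.

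JHD2 encodes the JmjC-domain demethylase that acts on H3K4. JHD2 (YJR119C, chromosome X, 644304 to 646490, minus strand, 2187 bp) had no peak of either mark from 500 bp upstream to its end. This was so for 16.2% of the 2248 genes of at least 1500 bp, the length class of JHD2, and for 24.1% of the 2410 genes under 1000 bp, the class of SDC1. The stretch without peaks around JHD2 was 4083 bp long, from 643245 to 647327, and also held ILM1. It began 837 bp upstream of the start codon of JHD2, next to an H3K4me3 peak of 849 tags at 3.36-fold. That peak lay over ATP2 and the end of DMO1. The stretch ended 1059 bp beyond the gene, before an H3K4me2 peak over STE24.

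The stretch without peaks around SHG1, from 728202 to 730303, was 2102 bp long and also held POP4. The peaks of both lists together left 3998 such stretches between them, with a median of 816.5 bp. A gene under no peak lies in a stretch at least as long as itself, so the lengths around SDC1, SHG1 and JHD2 are given as a description.

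By fold, the H3K4me3 peaks over the COMPASS genes were mostly in the lower part of their list. The 6 H3K4me3 peaks that covered a base of these genes had folds of 2.61 to 3.70, and 1 of them, that of SWD3, was at or above the list median of 3.09. Without it the other 5 lay between 2.61 and 2.94, and each of the 5 covered the start codon of 1 gene only. Over starts with H3K4me3, the median fold was 2.76 in the 6 COMPASS genes and 3.12 in the 3874 other genes (quartiles 2.83 and 3.45). The H3K4me3 peak of SET1 exceeded 18.2% of the list in fold and 72.0% in score, and it was wider than 75.9% of the peaks. No difference in fold was tested, since the 6 values come from 1 library.

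The 4 H3K4me2 peaks over COMPASS genes had folds of 2.33 in SET1, 2.53 in BRE2, 2.79 in SPP1 and 3.16 in SWD3. The peaks of SPP1 and SWD3 were above the list median of 2.64 and those of SET1 and BRE2 below it. By score 1 of the 4, that of SWD3 at 239.07, reached 100. The others were 97.63 in SPP1, 91.99 in BRE2 and 73.41 in SET1, against a list median of 163.7.

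**Figure D3:**
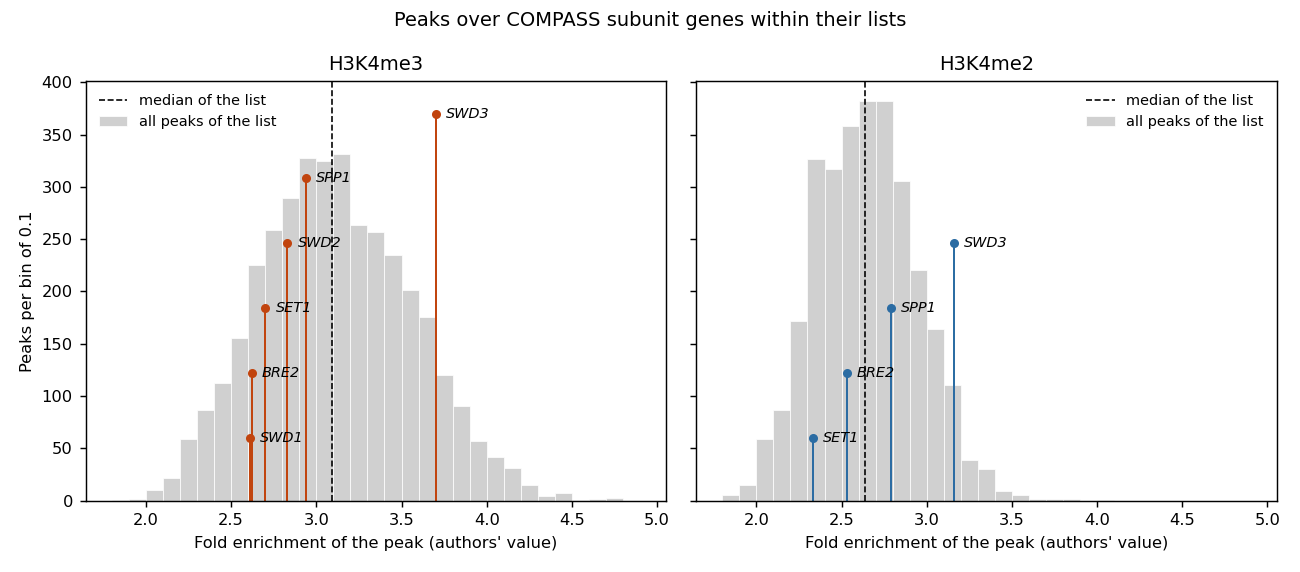
Distribution of the authors' fold enrichment over all peaks of each list (x axis, in bins of 0.1; y axis, number of peaks) with the peaks over COMPASS genes marked by lines, whose heights only keep the labels apart. Of the H3K4me3 peaks all but that of SWD3 lie below the list median of 3.09, and the H3K4me2 peaks of SPP1 and SWD3 lie above the median of 2.64.

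Where a gene carried both marks, H3K4me3 lay upstream of H3K4me2. A mark covered some base within the gene in 6 of 9 genes for H3K4me3 (66.5% of all genes) and in 4 of 9 for H3K4me2 (51.5% of all genes). In the 4 genes with both, the centre of the H3K4me3-covered bases lay upstream of the H3K4me2 centre by 59 bp in SWD3, 75 bp in SET1, 121.5 bp in BRE2 and 207.5 bp in SPP1. The median was 98.2 bp, against 127 bp (quartiles 42 and 231.8 bp) in the 2723 other genes with both marks. H3K4me3 was upstream in 4 of 4 COMPASS genes and in 87.1% of the other genes. The order depends on peak width in BRE2, whose summits lay 331 bp (H3K4me3) and 327 bp (H3K4me2) after the start codon. When peaks were trimmed to 500 bp centred on their summits, the H3K4me3 centre of BRE2 was 4 bp downstream of the H3K4me2 centre, a distance of -4 bp. With bases from 500 bp upstream counted as well, SWD2 joined these genes through the H3K4me2 peak of RAM2, at a distance of -505.9 bp.

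Coverage was also read at single positions, and no difference from other genes was tested. At the start codon 6 of 9 genes were under an H3K4me3 peak (59.6% of other genes) and 0 of 9 under an H3K4me2 peak (20.3% of other genes), where a count of 0 allows a share of up to 33.3%. At 500 bp, among the 8 genes that reach it, 6 were under H3K4me3 (67.3% of other genes) and 4 under H3K4me2 (55.9%). At 750 bp the counts were 3 of 7 for H3K4me3 (52.1% of other genes) and 4 of 7 for H3K4me2 (58.9%). At 1000 bp they were 1 of 5 for H3K4me3, in SPP1 (25.9% of other genes), and 2 of 5 for H3K4me2, in SET1 and SPP1 (49.5%).

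**Figure D4:**
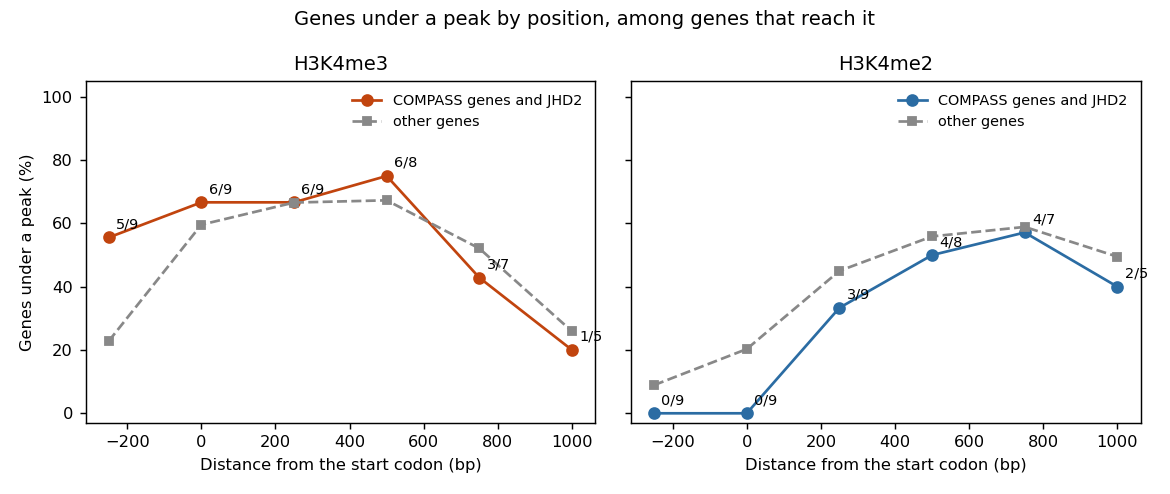
Share of genes under a peak (y axis, %) at positions from 250 bp before to 1000 bp after the start codon (x axis), among genes that reach the position, for the COMPASS genes with JHD2 (solid, with counts) and for other genes (dashed). H3K4me3 is over 6 of 9 start codons and H3K4me2 over 0 of 9, and 250 bp upstream H3K4me3 is over 5 of 9.

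Some rows touched only the stretch upstream of the start codon, and these peaks had their summits in neighbouring genes. Counting every row that met the search rule, 7 of 9 genes had an H3K4me3 peak (73.9% of all genes) and 5 of 9 an H3K4me2 peak (60.4% of all genes). Of the 11 H3K4me3 rows, 5 touched only the upstream stretch, and so did 2 of the 6 H3K4me2 rows. Each of these 7 peaks had its summit in another gene, namely ORC6, ERP1, PPR1 (for both marks), RAM2 (for both marks) and YBR259W. At 250 bp before the start codon 5 of 9 genes were under H3K4me3, against 22.8% of other genes. In SWD1, BRE2 and SHG1 that peak was the neighbour's, in SET1 it was its own, and in SWD3 it was the peak shared with UMP1.

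Of the 9 genes 8 have an arrangement that the choice did not use. In these 8 the nearest gene upstream is transcribed in the opposite direction, so that both start from the same intergenic stretch, against 52.1% of all genes with an upstream neighbour. SPP1 differs, with GIP3 upstream on the same strand. The divergent neighbours lay 222 bp (MCO12, beside SWD2) to 635 bp (DMO1, beside JHD2) away, with a median of 262 bp, against 508 bp over all divergent neighbours. In 7 of the 8 divergent pairs both starts had the same H3K4me3 class, against 65.8% over all genes with a divergent neighbour. Both were marked for SET1 with ORC6, SWD1 with ERP1, SWD3 with UMP1, BRE2 with PPR1 and SWD2 with MCO12, and neither was marked for SDC1 with TLG1 and JHD2 with DMO1.

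SHG1 was the pair that differed, with H3K4me3 over the whole start window of YBR259W and none over SHG1. DMO1 came near the limit, with 42.5% of its window covered. That window is the whole of this short gene, and the covered part was its end and not its start. The peak over it had its summit in ATP2. MCO12 counts as marked because 83.7% of this short gene lay under an H3K4me3 peak that also covered RAM2. That peak had its summit in RAM2 and did not reach the start codon of MCO12. These counts describe 9 genes and were not tested.

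COMPASS and JHD2 had 6 marked starts of 9 (66.7%) for H3K4me3 and 3 of 9 (33.3%) for H3K4me2, against 64.6% and 43.5% of all genes. The counts were 28 of 33 (84.8%) and 19 of 33 (57.6%) in 7 lists of genes that act with COMPASS and JHD2 or belong to related groups. With 75% of the window needed for H3K4me2, the 19 became 10 and the 3 stayed 3. The 9 genes are shorter, with a median of 1062 bp, against 1581 bp in the 33 genes and 1200 bp in all genes. Among genes under 1000 bp the share with H3K4me3 was 57.4% and with H3K4me2 30.7%, against 70.1% and 50.7% among those of at least 1500 bp. Starts with neither mark were found in short genes (SHG1 429 bp, SUS1 441 bp, SDC1 528 bp). They were also found in longer ones (UBP8 1416 bp, JHD1 1479 bp, JHD2 2187 bp, NTO1 2247 bp, ECM5 4236 bp). Neither the difference between the lists nor a link with gene length was tested.

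All 5 genes of the Paf1 complex, on which COMPASS activity depends, carried both marks at the start, against 38.4% of all genes. H3K4me2 was just over the 50% limit in PAF1 (52.2% of the window) and CDC73 (54.6%). With 75% of the window needed, only RTF1 and LEO1 of the 5 kept H3K4me2. RTF1, whose product promotes H2B ubiquitination, had the highest H3K4me3 fold of the 5 at 3.19 (532 tags), with H3K4me2 at 2.47-fold. The order within the lists is by fold and not by tags, which depend on peak width as well. Both are values of the peak of highest fold that touches the start window. Such a peak may extend into neighbouring genes, so its values need not be those of the named gene alone. All 3 genes of H2B ubiquitination carried H3K4me3, namely RAD6, the ubiquitin-conjugating enzyme, BRE1, the ligase, and LGE1, its partner, which was highest in fold at 4.05 (552 tags, against 697 in BRE1). LGE1 alone of the 3 carried H3K4me2 at the start. Of 5 genes of H2B deubiquitination, 3 carried H3K4me3, led in fold by UBP10 at 3.92 (680 tags), and the SAGA module genes UBP8 and SUS1 carried neither mark.

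Other genes with a JmjC domain were set beside JHD2, and other lysine methyltransferase genes beside SET1. Of 4 other genes with a JmjC domain, RPH1 and GIS1 carried both marks, with an H3K4me3 fold of 3 in GIS1 (227 tags) and 2.37 in RPH1 (260 tags), and JHD1 and ECM5 carried neither over any base of the gene. With JHD2, this made 3 of 5 genes with this domain with neither mark at the start, against 30.3% of all genes, and 5 genes are too few to compare these shares. All 3 other lysine methyltransferase genes carried H3K4me3. SET2, the H3K36 methyltransferase, was highest in fold at 3.30 (564 tags) and also carried H3K4me2, while DOT1 and SET5 carried H3K4me3 alone.

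For the readers, as for any list, the counts stand beside 64.6% of all genes with H3K4me3 and 43.5% with H3K4me2 at the start. All 7 genes of the Set3 complex carried H3K4me3 and 4 carried H3K4me2, with the cyclophilin gene CPR1 highest in H3K4me3 fold at 4.39 (509 tags). The list of H3K4me3 readers outside COMPASS held 6 genes, and whether each product itself binds the mark was not examined. Of these 6, 5 carried H3K4me3, led in fold by SGF29 of the SAGA complex at 4.18 (1077 tags), and 4 carried H3K4me2. NTO1, in the list as a subunit gene of the NuA3 acetyltransferase, carried neither mark.

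**Figure D5:**
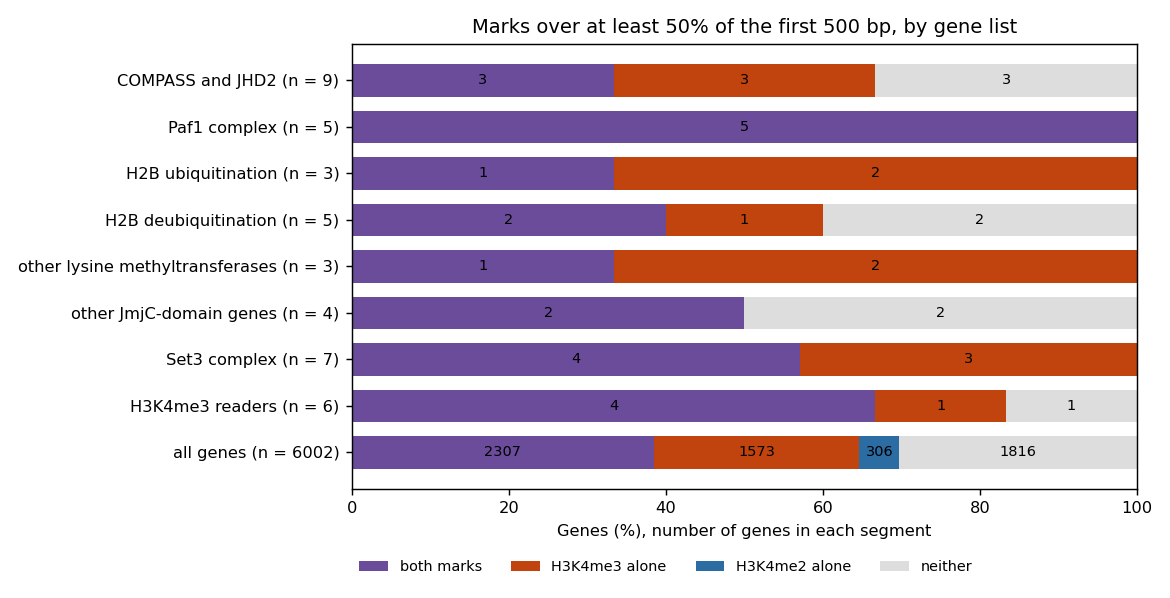
Share of genes (x axis, %) whose start carries both marks, H3K4me3 alone, H3K4me2 alone or neither, by gene list (y axis), with the number of genes in each segment. The COMPASS list with JHD2 is split 3, 3 and 3. All 5 Paf1 complex genes carry both marks, against 2307 of 6002 in all genes. For H3K4me2, PAF1 and CDC73 are just over the 50% limit. No listed gene carries H3K4me2 alone, a class that is rare in all genes as well (306 of 6002).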

How the data were processed

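Per the submitters' processing notes, CASAVA 1.8.2, MACS 1.4.2 (a peak caller) and the build sacCer3 were used. The sources used here do not name the aligner, the settings, the control or the treatment of repeated reads. The authors deposited 1 peak list per library with positions, a raw tag count, a fold enrichment (a ratio, background not named in the headers) and a p-value column. The authors deposited that column as values above 50, read here as a score of -10 times log10 of p, its scale being unstated. MACS lists only regions past a threshold, so weak marks are not listed, and micrococcal nuclease yields few fragments from nucleosome-free DNA.

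Genes came from a RefSeq table of assembly R64, to which sacCer3 corresponds. Its 6002 nuclear protein-coding spans run from start to stop codon (96.4% are multiples of 3), strand was read from the systematic name, and peak positions were taken as 1-based. Coverage, ranks and counts were computed with scipy 1.17.1, pandas 2.3.3 and numpy 2.4.6 under Python 3.11.15, figures with matplotlib 3.10.9, and the functions were tested on simulated peaks. Intervals are exact (Clopper-Pearson for shares, Poisson for tags), and the limit given for a count of 0 is 3 counts of the total, an approximation. The 9 genes, the lists and the settings were chosen with earlier results of these data known. Named are all 9 genes, genes whose starts their peaks cover, and in each list the start with the highest H3K4me3 fold and genes with neither mark. Other list members, and neighbours such as ORC6, were named after their values were seen. A planned promoter motif search was not run, because no promoter sequences were used here.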

Additional observations from a re-analysis of the deposited data

How the results depend on the processing

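No paired analysis was possible because each mark has 1 library. The count of 6 starts with H3K4me3 was 4 to 6 under 7 of 9 alternatives, 1 (SWD3) with peaks of at least median fold in their list, and 3 over the whole gene. The count of 3 starts with H3K4me2 was 1 with a score of at least 100, 1 at the median fold (both SWD3), 1 (BRE2) with peaks of 500 bp around the summit, 0 in a window of 250 bp either side of the start codon, and 2 to 3 under the other 5. With these changes of the peaks all genes gave H3K4me3 shares of 55.0% (score), 34.5% (fold) and 51.9% (summit). The H3K4me2 shares were 33.4%, 23.0% and 16.4%. For changes of the start window or its needed share, no share of all genes is given. The drops to 0 either side of the start codon and to 3 over the whole gene therefore cannot be set against the genome. At the start codon itself 20.3% of other genes were under an H3K4me2 peak. From 500 bp upstream to the end, H3K4me3 was in 2 genes at the median fold and in 5 to 8 otherwise, JHD2 joining with 1000 bp upstream; H3K4me2 was in 2 genes (score), 3 (fold) or 4 to 5. The median distance between centres of 98.2 bp was 24 bp with peaks around the summit. That value rests on 3 genes without SWD3, at -4 bp in BRE2, 24 bp in SET1 and 467.5 bp in SPP1. With upstream bases the median was 270 bp, where SWD2 stood apart at -505.9 bp. With a score of at least 100, or at the median fold, the distance rests on SWD3 alone (59 bp). The 28 H3K4me3 starts in the lists became 17 (median fold) and 18 (whole gene). Their 19 H3K4me2 starts became 11 (score), 7 (fold), 7 (summit), 10 (75% of the window), 3 (both sides) and 10 (first 250 bp). SDC1 had no peak under any setting tried. The peaks of BRE2, and the H3K4me2 peaks of SET1 and SPP1, have scores under 100.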

Other observations

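Parts of several COMPASS genes with a marked start were under no peak. In SET1 both peaks ended by 1001 bp of 3243 bp, and 734 bp of the 1518 bp of BRE2 and 666 bp of the 1281 bp of SWD1 were under no peak. In SWD3 (948 bp) and SPP1 (1062 bp) no base was free of both marks, while SWD2 (990 bp) had 358 bp under neither and SDC1 (528 bp) and SHG1 (429 bp) had no base under either. In SWD3 5 bp and in SPP1 20 bp lay under H3K4me2 alone, against 188 bp in BRE2 and 108 bp in SET1.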
